A study of Mus musculus with 3 samples.

Results

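Apolipoproteins are the protein part of the particles that carry fat and cholesterol in blood, and the liver makes most of them. The 10 apolipoprotein genes described here were Apoa1, Apoa2, Apoa4, Apoa5, Apob, Apoc1, Apoc2, Apoc3, Apoe and Apom, taken by symbol from a table of 35275 genes, in which each of the 10 symbols stood once. The table gives RNA sequencing of mouse liver from 3 libraries, 1 per group. The TH-treated NASH library came from C57BL/6J males, aged 10 weeks at the outset, which ate a western diet with liquid fructose (WDF) for 16 weeks, and then drank T3 at 35 ng/g and T4 at 7 ng/g in water with 15% fructose for 8 more weeks. T3 and T4 are the thyroid hormones. The untreated NASH library (nonalcoholic steatohepatitis) was made from male mice of that strain and starting age on that diet, and its label names 24 weeks. The control library came from untreated male mice of that strain and starting age on normal chow; its weeks of feeding are not stated. The strain stands as C57BL/6 in another label of each library, and no transgene or deletion is named in any group. Whether 1 animal or a pool stands behind each library is not stated.

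Apolipoprotein B stays with its particle from assembly to uptake: liver cells load it with triglyceride to make very low density lipoprotein (VLDL). Apolipoproteins A-I and A-II are the main proteins of high density lipoprotein (HDL), and apolipoprotein M is carried on it. The C apolipoproteins, A-V and E move between particles and set how fast lipoprotein lipase strips their triglyceride and how fast liver receptors take up the remnants. In mice, Apoa1, Apoc3, Apoa4 and Apoa5 lie side by side on chromosome 9, and Apoe, Apoc1 and Apoc2 on chromosome 7, with Apoc4 among these.

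Levels are in FPKM, which are fragments set relative to the gene's length and to the library's total. The libraries held 38303410 fragments on genes in TH-treated NASH, 47009255 in NASH and 54576236 in control. A group of 1 library gives no spread between animals, so no test was run, no p-value is given, and every difference below is one between these libraries. A range in brackets after a fold is a 95% interval for counting error only. Higher and lower, where genes are counted, mean a difference of 1.5-fold or more in log2(FPKM + 1). All 10 genes exceeded 1 FPKM in all 3 libraries, with at least 3613 fragments each. In bulk liver, fewer cells of a type and less RNA per cell cannot be told apart. The libraries carry the markers of liver: all 23 hepatocyte markers stood above 1 FPKM in each library, albumin (Alb) at 14907 FPKM in TH-treated NASH, 20265 in NASH and 32685 in control. Dio1, a deiodinase gene that thyroid hormone induces, stood at 429.7 FPKM in TH-treated NASH, 129 in NASH and 90.3 in control. It was 1 of 5 among 19 thyroid hormone targets that were higher in TH-treated NASH than in NASH, while 1 was lower and 13 lay within 1.5-fold, with a median log2 difference of 0.31.

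The stretches of DNA at the starts of Apoa4, Apoc2 and Apom are shown because these 3 genes lay furthest from control in NASH. Each runs from 250 bases before to 50 after the RefSeq start on GRCm38.p6, 5′ to 3′ on the gene's strand, and capitals mark the motifs searched for. The window of Apoa4 is chr9:46240594-46240893 on the plus strand, that of Apoc2 chr7:19677892-19678191 on the minus strand and that of Apom chr17:35131752-35132051 on the minus strand.
Apoa4: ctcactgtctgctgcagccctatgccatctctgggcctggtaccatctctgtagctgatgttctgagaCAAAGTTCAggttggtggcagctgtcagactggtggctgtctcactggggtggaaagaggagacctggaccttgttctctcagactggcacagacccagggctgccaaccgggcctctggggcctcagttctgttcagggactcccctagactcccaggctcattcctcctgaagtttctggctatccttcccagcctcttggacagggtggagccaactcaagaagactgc
Apoc2: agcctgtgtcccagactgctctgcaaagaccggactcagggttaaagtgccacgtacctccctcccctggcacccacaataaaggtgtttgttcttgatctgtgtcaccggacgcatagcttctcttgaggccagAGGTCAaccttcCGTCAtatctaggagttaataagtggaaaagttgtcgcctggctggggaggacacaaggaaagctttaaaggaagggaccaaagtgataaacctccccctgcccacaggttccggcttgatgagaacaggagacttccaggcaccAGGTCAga
Apom: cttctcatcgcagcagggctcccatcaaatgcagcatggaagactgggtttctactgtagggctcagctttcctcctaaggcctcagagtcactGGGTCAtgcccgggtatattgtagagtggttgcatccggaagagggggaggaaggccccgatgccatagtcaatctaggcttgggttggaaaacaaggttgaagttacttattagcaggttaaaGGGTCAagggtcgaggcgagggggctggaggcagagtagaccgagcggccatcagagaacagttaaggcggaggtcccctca

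The motifs, searched on both strands, were AGGTCA and GGGTCA (hexamers that nuclear receptors bind), CAAAGTNCA (the core of sites that bind HNF4), TGACG (part of a cAMP response element), TATAAA (the TATA box) and CACGTG (the E-box). They were chosen with these sequences in view. RefSeq windows were found for 8 of the 10 genes, all but Apoc1 and Apoc3. The Apoa4 window holds CAAAGTNCA, beginning 182 bases before the start, a motif that 1.41% of all 32851 promoter windows of this length hold. The Apom window holds GGGTCA beginning 156 and 32 bases before the start, a motif found in 13.7% of windows. The Apoc2 window holds AGGTCA beginning 115 bases before and 42 after the start, and TGACG on the other strand beginning 103 bases before it; 16.3% and 20.8% of windows hold these. No 2 of the marked motifs overlap in these windows. These distances hold for the RefSeq starts only. The deposited Apoa4 begins at 46240696, inside its window and after the marked motif. The deposited Apom begins at 35132050 on the minus strand, so both of its motifs lie within the deposited gene. The deposited Apoc2 begins at 19681423 on the minus strand, outside its window. The other genes were read at their first listed start. Apob holds only the TATA box (13.6% of windows), Apoa2 that and TGACG, and Apoe GGGTCA; later starts of Apoa2 and Apoe hold AGGTCA and the TATA box instead. Apoa5 holds GGGTCA, the TATA box and the E-box (7.15% of windows), and Apoa1 none of the motifs. A match is a description of letters and says nothing of whether a factor was bound.

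**Figure D1:**
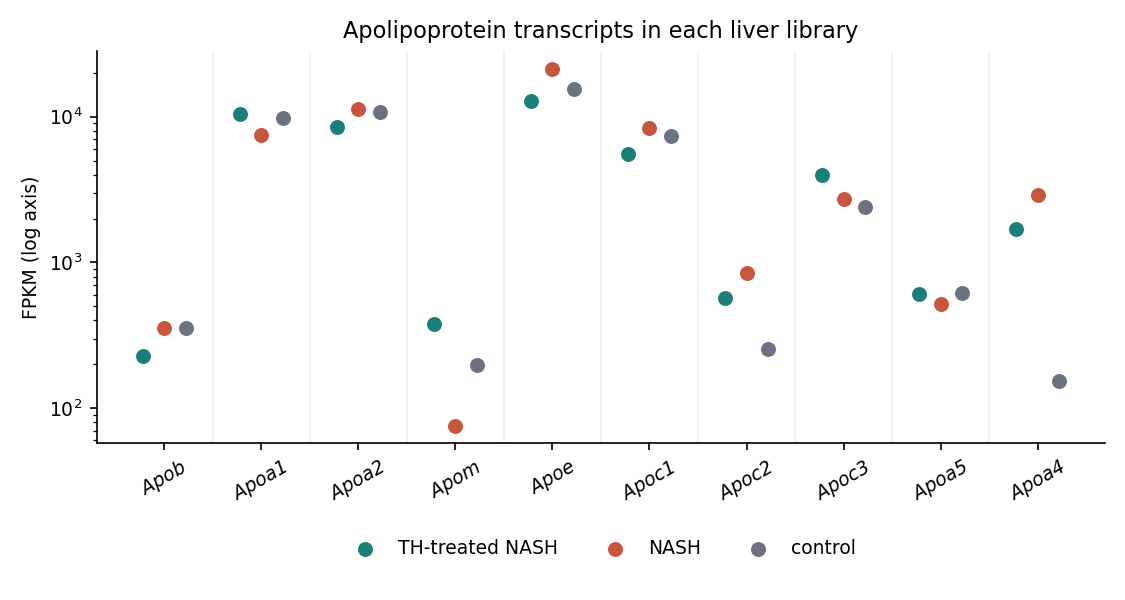
FPKM of each of the 10 apolipoprotein genes (log axis) in the 3 liver libraries, 1 point per library and no error bar because each group has 1 library. Apoe, Apoa2, Apoa1 and Apoc1 are the 4 highest in every library, and the points of Apoa4, Apom and Apoc2 are the most spread.

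The order of levels per length was steep in every library. Apoe led with 12707 FPKM in TH-treated NASH, 21354 in NASH and 15518 in control, which gave it rank 3, 1 and 2 among all genes of its library. Apoa1, Apoa2 and Apoc1 followed in differing order, then Apoc3, with Apoa4 above it in NASH alone, and the genes at the low end were Apob and Apom in TH-treated NASH and NASH and Apom and Apoa4 in control. The 10 genes together took 4.68% of the fragments of TH-treated NASH (4.68% to 4.69%), 6.14% of those of NASH (6.13% to 6.14%) and 4.98% of those of control (4.97% to 4.98%), with exact binomial intervals. Their summed FPKM was 44581, 55847 and 47530, so that the pool was 1.17-fold larger in NASH than in control and 1.25-fold smaller in TH-treated NASH than in NASH. Without Apoe the sums were 31874 FPKM in TH-treated NASH, 34493 in NASH and 32012 in control, a narrower range than with it. As shares of the pool, Apoe made up 28.5% in TH-treated NASH, 38.2% in NASH and 32.6% in control, and Apoa1 23.3%, 13.3% and 20.7% in that order of libraries. Apoa4 took 3.82% in TH-treated NASH, 5.23% in NASH and 0.325% in control. Ranks and shares within a library rest on the deposited gene lengths. These are 1386 bases for Apoe and 487 for Apoc1, where the annotation GENCODE M21 has 2138 and 744 exonic bases. For Apob, Apom and Apoa4 the 2 sources give equal lengths.

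**Figure D2:**
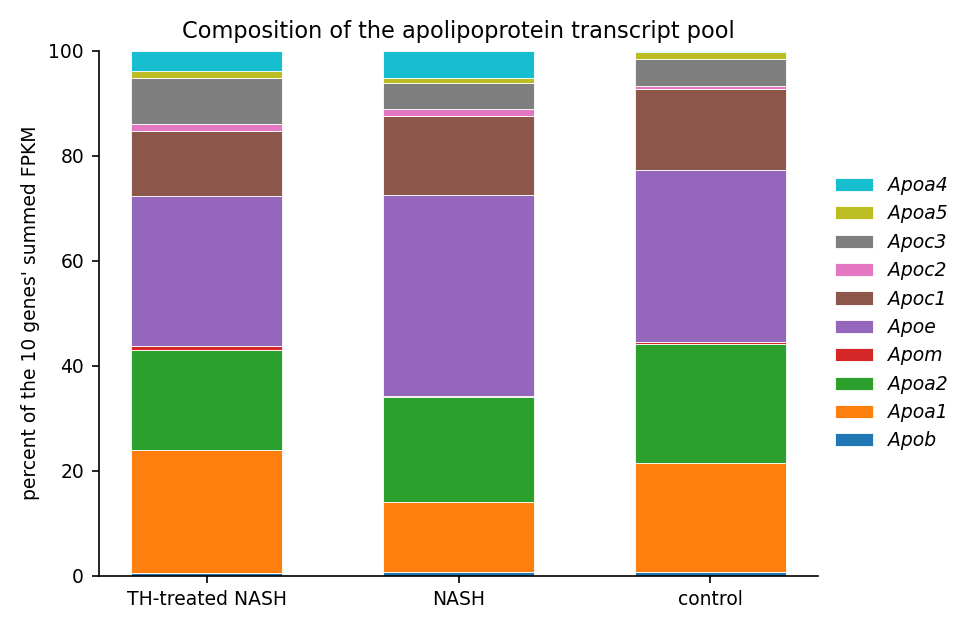
Share of each gene in the summed FPKM of the 10 apolipoprotein genes, as stacked bars of 100% for the TH-treated NASH, NASH and control libraries. The Apoe block is 38.2% of the NASH bar, and the Apoa4 block, 5.23% of that bar, is a thin line of 0.325% in control.

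NASH was first set against control, the diet with fructose against chow. Among the apolipoproteins, Apoa4 and Apoc2 were higher, Apom was lower, and the 7 others lay within 1.5-fold. Of all genes reaching 1 FPKM in one of the libraries, 10.5% were as far higher and 2.57% as far lower; of those reaching 100 FPKM, 6.22% and 8.92% were. The median log2 difference was 0.12 over the 10 genes and 0.12 over all 11499 genes compared, against −0.03 over the 740 genes of at least 100 FPKM.

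Apoa4 encodes an apolipoprotein of chylomicrons that is made mainly in the intestine and, in mice, also in the liver. It stood at 2919 FPKM in NASH and 154.6 FPKM in control, on 249017 and 15318 fragments. That is 18.9-fold higher (18.6 to 19.2), a log2 difference of 4.23 that only 3 of the 11499 genes exceeded. Gm10680, an antisense gene that overlaps Apoa4, was among these 3, at 4.25. Apoa4 stood at rank 23 among all genes of the NASH library, against rank 455 in control.

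Apoc2, the cofactor without which lipoprotein lipase does not work, stood at 844.9 FPKM in NASH and 252.6 FPKM in control, 3.34-fold higher (3.27 to 3.42). Its log2 difference of 1.74 was exceeded by 65 genes. Apoc3, which holds back lipoprotein lipase and remnant uptake, stood close together at 2711 FPKM in NASH and 2410 FPKM in control, 1.12-fold (1.11 to 1.14). The ratio of Apoc2 to Apoc3, which does not depend on how libraries are scaled, was therefore 0.312 in NASH (0.308 to 0.316) and 0.105 in control (0.103 to 0.107). Apoa5, which promotes triglyceride clearance, stood at 518.2 FPKM in NASH and 614 FPKM in control, 1.18-fold lower (1.17 to 1.197). The small differences of Apoc3 and Apoa5 took the other sign under some scalings, from −0.047 to 0.67 and from −0.46 to 0.25 on the log2 scale, whereas Apoc2 stayed higher.

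Apom, a lipocalin that carries sphingosine 1-phosphate on HDL, stood at 75.9 FPKM in NASH and 199 FPKM in control, 2.62-fold lower (2.53 to 2.72), and only 44 genes had a smaller log2 difference than its −1.38. Apoa1, the main HDL protein and the activator of the esterifying enzyme Lcat, stood at 7434 FPKM in NASH and 9851 FPKM in control, 1.33-fold lower (1.32 to 1.33), though 0.093 higher on the log2 scale relative to hepatocyte markers. Apoa2, the other main HDL protein, stood at 11246 FPKM in NASH and 10781 FPKM in control, 1.04-fold (1.04 to 1.05). The HDL genes did not keep their proportions: Apoa1 per Apoa2 was 0.661 in NASH and 0.914 in control, and Apom per Apoa1 was 0.0102 in NASH and 0.0202 in control.

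Apoe, the ligand through which liver cells bind and take up remnants, stood at 21354 FPKM in NASH and 15518 FPKM in control, 1.38-fold higher (1.37 to 1.38) and short of the threshold. Its neighbour Apoc1, which hinders such uptake, stood at 8389 FPKM in NASH and 7392 FPKM in control, 1.13-fold (1.13 to 1.14). Apob, the structural protein of VLDL, stood at 356.4 FPKM in NASH and 357.2 FPKM in control, though its log2 difference ran from −0.22 to 0.49 over the scalings tried. FPKM of the whole Apob gene do not tell its edited and unedited transcripts apart. Apoe is also a gene of macrophages, and all 20 markers of macrophages and Kupffer cells were higher in NASH, their summed level 926 FPKM against 301.4 in control, with Clec4f at 59.9 against 33.8 FPKM and Cd68 at 20.3 against 6.11 FPKM; their part in the Apoe level was not tested. The 23 hepatocyte markers summed to 53387 FPKM in NASH and 75446 in control, and 9 of them were lower. Relative to that sum, 5 apolipoproteins (Apoa4, Apoc2, Apoe, Apoc1 and Apoc3) were 1.5-fold higher in NASH, and Apom was still lower.

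**Figure D3:**
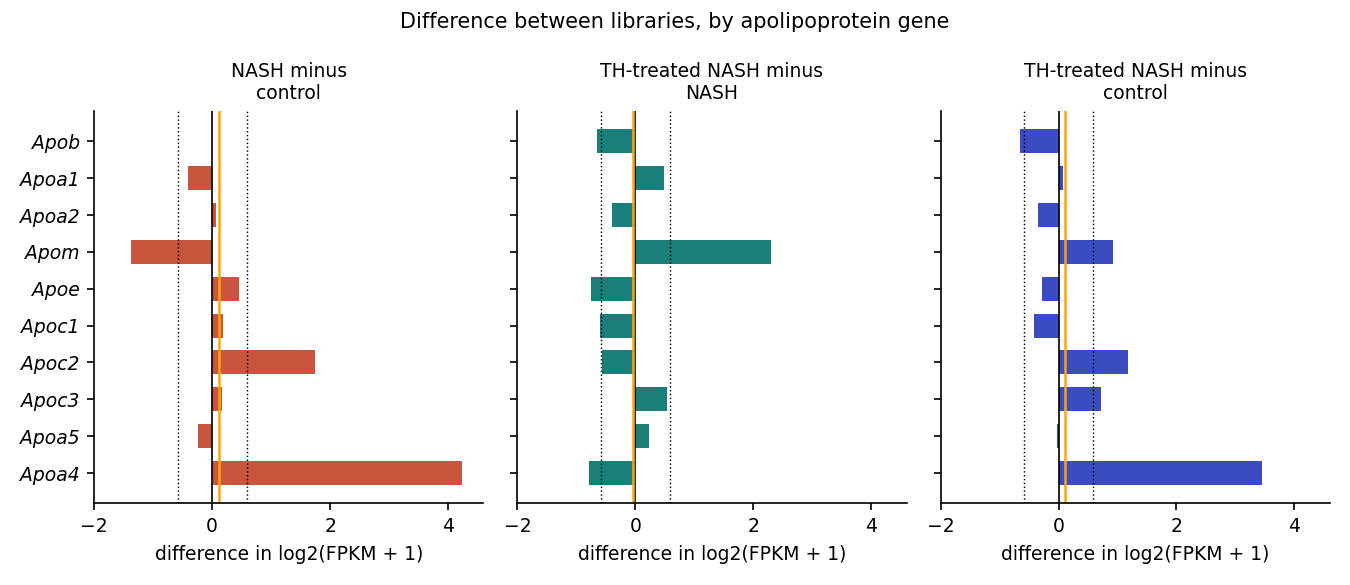
Difference in log2(FPKM + 1) for each of the 10 genes, from left to right NASH minus control, TH-treated NASH minus NASH and TH-treated NASH minus control. Dotted lines mark 1.5-fold and the orange line the median of all genes; in the first panel the bars of Apoa4 and Apoc2 reach 4.23 and 1.74 and that of Apom −1.38.

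Gut and fat tissue were checked because Apoa4 is abundant in intestine. Of 17 markers of gut epithelium, 14 lay below 1 FPKM in NASH and in control. The defining enterocyte genes were Fabp2, Lct, Sis and Alpi, and they were split. Sis and Alpi were at 0 in all 3 libraries, with Lct at 0.0103 FPKM in NASH and 0 in the others. Fabp2, an enterocyte fatty acid binding protein, stood at 220 FPKM in NASH and 57.9 FPKM in control. Its log2 difference was 1.91 there and −1.57 in TH-treated NASH against NASH, the same directions as Apoa4. The other markers above 1 FPKM were Lgals4 at 15.5 against 17.4 FPKM and Tff3 at 5.61 against 14.05 FPKM. The part of gut cells in the Apoa4 level was not tested. The 17 markers summed to 219.5 FPKM in TH-treated NASH, 242.6 in NASH and 89.98 in control. The 13 fat cell markers summed to 265.1 FPKM in TH-treated NASH, 1652 in NASH and 2065 in control, most of it Car3, at 212.7, 1430 and 2033 FPKM in that order of libraries. Of the 8 that reached 1 FPKM in NASH or control, 5 were higher in NASH and none lower, with a median log2 difference of 1.70. Cidea, a lipid droplet protein, stood at 43.5 FPKM in NASH and 0.346 FPKM in control, its relative Cidec at 77.5 against 6.701 FPKM, Cfd (adipsin) at 44.2 against 2.64 FPKM and Fabp4 at 34.3 against 8.11 FPKM. In TH-treated NASH 5 of the 8 were lower than in NASH and none higher. The defining fat cell genes Adipoq, Lep and Plin1 stayed at or below 0.0659 FPKM in every library, and the part of fat cells in the apolipoprotein levels was not tested.

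The protein-coding genes around Apoa4 did not share its higher level in NASH. In the chromosome 9 cluster, Apoa1 (ENSMUSG00000032083) lies from 46228580 to 46230466 and Apoc3 (ENSMUSG00000032081) from 46232933 to 46235636. Apoa4 (ENSMUSG00000032080) lies from 46240696 to 46243459 and Apoa5 (ENSMUSG00000032079) from 46268633 to 46271919. These positions are as deposited, without a stated genome build, and their starts and ends equal those in GENCODE M21. Within this cluster the log2 differences of NASH from control were −0.41 for Apoa1, 0.17 for Apoc3, 4.23 for Apoa4 and −0.24 for Apoa5. The ratio of Apoa4 to Apoa1 was 0.393 in NASH (0.391 to 0.395) and 0.0157 in control (0.0154 to 0.0160). Of 22 measured protein-coding genes within 50 kb of any of the 10, 3 were higher (Fcer1g and Aif1, genes of immune cells, and Relb, a subunit of NF-kappa-B) and 1 lower (Pcp4l1), with a median of 0.01. All of these lay on other chromosomes, near Apoa2, Apom or Apoc2. Of all genes compared, 10.5% were as far higher and 2.57% as far lower. Beside the chromosome 9 cluster, Zpr1, Sik3 and Bud13 stood at log2 differences of −0.32, −0.23 and −0.10.

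A gene that overlaps Apoa4 differed likewise, though its signal may not be separate from that of Apoa4. Gm10680, an antisense gene without a known role that overlaps Apoa4 over 839 bases on the opposite strand, stood at 1132 FPKM in NASH and 58.7 FPKM in control, and at 851 FPKM in TH-treated NASH. Its fragments came to 19.3% of those of Apoa4 in TH-treated NASH, 15.0% in NASH and 14.7% in control. No source used here gives the strand mode of the counting, so fragments of the Apoa4 and Gm10680 strands cannot be told apart. In GENCODE M21, 34.8% of the exonic bases of Apoa4 are also exonic in Gm10680 on the opposite strand, and 34.9% in Gm47528, likewise opposite. The bases shared with Gm10680 number 632 there, and the deposited length of Gm10680 is 702 bases.

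In the chromosome 7 cluster, Apoe (ENSMUSG00000002985) lies from 19696109 to 19699166, Apoc1 (ENSMUSG00000040564) from 19689484 to 19692658 and Apoc2 (ENSMUSG00000002992) from 19671579 to 19681423, all on the minus strand. The deposited span of Apoc2 takes in the whole of Apoc4, from 19678094 to 19681416 on the same strand, so how fragments were shared between these 2 genes is uncertain. In GENCODE M21, 79.5% of the exonic bases of Apoc2 are also exonic in Gm44805 on the same strand. Apoc4 itself stood at 364.2 FPKM in NASH and 361.2 FPKM in control while Apoc2 was 3.34-fold higher. The remaining genes are spread over other chromosomes: Apoa2 (ENSMUSG00000005681) on chromosome 1 from 171225054 to 171226379, Apob (ENSMUSG00000020609) on chromosome 12 from 7977648 to 8016835 and Apom (ENSMUSG00000024391) on chromosome 17 from 35128997 to 35132050.

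**Figure D4:**
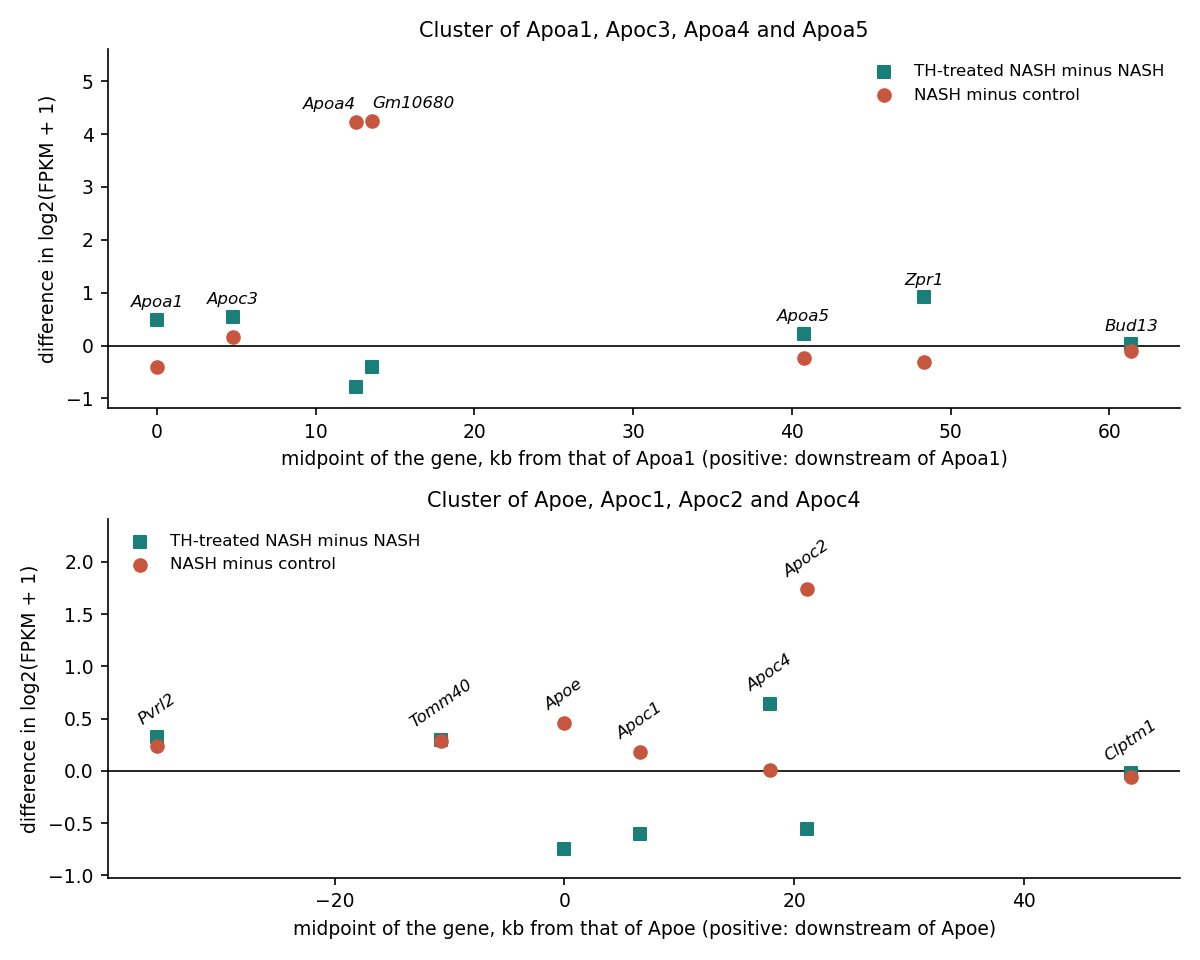
Difference in log2(FPKM + 1) of the genes of the 2 apolipoprotein clusters, set by the distance of the gene's midpoint from that of Apoa1 (top) or Apoe (bottom) in kb; squares are TH-treated NASH minus NASH and circles NASH minus control. Apoa4 and its antisense gene Gm10680 stand at 4.23 and 4.25 in NASH minus control, while Apoa1, Apoc3 and Apoa5 lie between −0.41 and 0.17.

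The partners of the apolipoproteins were given by lists. Of 21 genes of VLDL assembly and secretion none was higher in NASH and 1, the sorting receptor Sort1, was lower at 1.27 against 3.09 FPKM, and Mttp, which loads Apob with lipid, stood at 76.9 against 78.02 FPKM. None of 6 genes of Apob mRNA editing was 1.5-fold off. Among 14 receptors and uptake genes 4 were higher and 1 lower. The higher ones were Cd36, a fatty acid translocase, at 54.01 against 12.05 FPKM, the HDL receptor Scarb1 at 71.2 against 46.4 FPKM, the scavenger receptor Msr1 at 5.56 against 2.998 FPKM, and the ubiquitin ligase Mylip at 4.84 against 2.88 FPKM.

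Of 13 lipases and regulators only Lpl, lipoprotein lipase itself, was higher, at 22.6 FPKM in NASH and 4.203 FPKM in control, 5.37-fold. Of 11 genes of HDL assembly and remodelling 3 were higher, the sterol exporter Abcg1, the phospholipase Pla2g7 and Scarb1, and none lower, with a median of −0.10. Of 34 transcription factors and cofactors of apolipoprotein genes 3 were higher and 3 lower; their median was −0.04. Srebf1, a lipogenic factor, stood at 125 FPKM in NASH and 55.5 FPKM in control, the repressor Nr0b2 at 32.6 against 15.2 FPKM, and Pparg at 10.5 against 6.43 FPKM. On the lower side stood the forkhead factor Foxa3 at 23.8 against 39.8 FPKM, the immediate early factor Egr1 at 2.45 against 5.74 FPKM and the coactivator Ppargc1b at 1.12 against 2.40 FPKM. Creb3l3, a liver factor known in mice to drive Apoa4, Apoc2 and Apoa5, stood at 145 FPKM in NASH and 147.8 FPKM in control, and Hnf4a, which many apolipoprotein genes depend on, at 92.6 against 133.95 FPKM, within the threshold.

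TH-treated NASH was next set against NASH, liver of mice given thyroid hormone against that of untreated mice on the diet. The labels do not state what the treated mice ate during the hormone weeks. Apom was higher, and Apoa4, Apoe, Apob and Apoc1 were lower; the 5 others lay within 1.5-fold. Of all genes reaching 1 FPKM in one of the libraries, 8.49% were as far higher and 9.03% as far lower; of those reaching 100 FPKM, 25.4% and 15.4% were. The median log2 difference was −0.48 over the 10 genes and −0.03 over all 11734 genes compared, against 0.20 over the 803 genes of at least 100 FPKM. This comparison shares its NASH library with the one above, so that opposite directions in the 2 are not independent.

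Apom stood at 379.2 FPKM in TH-treated NASH and 75.9 FPKM in NASH, 4.997-fold higher (4.82 to 5.18), on 14712 and 3613 fragments. Only 66 genes had a larger log2 difference than its 2.31. The other HDL genes lay on both sides: Apoa1 stood at 10408 FPKM in TH-treated NASH and 7434 FPKM in NASH, 1.40-fold (1.39 to 1.41), and Apoa2 at 8509 against 11246 FPKM, 1.32-fold lower (1.31 to 1.33). Apoa1 per Apoa2 was 1.22 in TH-treated NASH (1.22 to 1.23) and 0.661 in NASH (0.658 to 0.664).

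Apoa4 stood at 1701 FPKM in TH-treated NASH and 2919 FPKM in NASH, 1.72-fold lower (1.70 to 1.73), and held rank 46 among all genes of the TH-treated NASH library. Apoe stood at 12707 FPKM in TH-treated NASH and 21354 FPKM in NASH, 1.68-fold lower (1.68 to 1.69), and Apoc1 at 5518 against 8389 FPKM, 1.52-fold lower (1.51 to 1.53). Apob stood at 226.6 FPKM in TH-treated NASH and 356.4 FPKM in NASH, 1.57-fold lower (1.56 to 1.58). These 4 genes lay close to the threshold: none of them reached 2-fold, and Apoc1 fell short of 1.5-fold after median-of-ratios scaling and Apob after centring on genes of like length, while that centring put Apoa2 past it, at a log2 difference of −0.71.

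Apoc2 was just inside the threshold at 573.6 FPKM in TH-treated NASH and 844.9 FPKM in NASH, 1.47-fold lower (1.44 to 1.502). It passed the threshold in 3 of 12 settings: scaling to equal summed FPKM, scaling to hepatocyte markers and centring on genes of like length. Some of the other settings change only the background genes and could not move it. Apoc3 lay on the other side at 3954 FPKM in TH-treated NASH and 2711 FPKM in NASH, 1.46-fold (1.45 to 1.47). Apoc2 per Apoc3 was 0.145 in TH-treated NASH (0.143 to 0.147), 0.312 in NASH and 0.105 in control. Apoa5 stood at 605.2 FPKM in TH-treated NASH and 518.2 FPKM in NASH, 1.17-fold (1.15 to 1.18). Within the chromosome 9 cluster Apoa4 was thus the 1 gene of the 4 on the lower side, and in the chromosome 7 cluster Apoe, Apoc1 and Apoc2 were all lower while Apoc4 stood at 570 against 364.2 FPKM, 1.56-fold higher.

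The levels of short and long genes differed between these libraries as a whole. Genes up to 700 bases long had a median log2 difference of 0.26 and genes over 3000 bases −0.08, and the deposited lengths are 13934 bases for Apob, 487 for Apoc1 and 518 for Apoa2. The macrophage markers summed to 1188 FPKM in TH-treated NASH and 926 in NASH, with 4 of 20 higher and 1 lower. The list was split: the lower gene was Gpnmb, at a log2 difference of −2.46. Marco, Timd4 and Clec4f, among the higher, stood at 1.78, 1.15 and 1.10. Hepatocyte markers summed to 57642 FPKM in TH-treated NASH and 53387 in NASH, with 8 of 23 higher and 2 lower. Blood cell markers summed to 1857 FPKM in TH-treated NASH and 411.7 in NASH; the part of these shifts in the apolipoprotein levels was not tested.

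**Figure D5:**
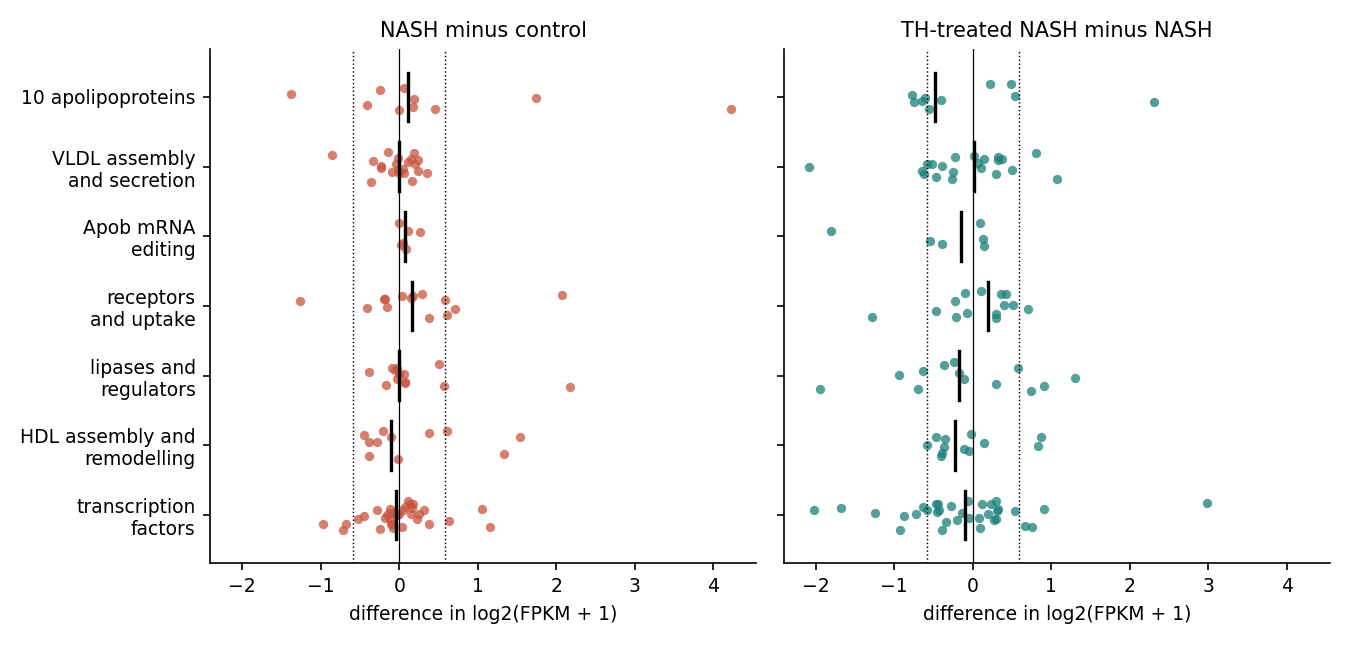
Difference in log2(FPKM + 1) of the 10 apolipoprotein genes and of the genes in 6 partner lists, for NASH minus control (left) and TH-treated NASH minus NASH (right); each point is 1 gene of at least 1 FPKM in either library, the black bar the list's median and dotted lines 1.5-fold. The median of the apolipoproteins is 0.12 on the left and −0.48 on the right.

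Of 21 genes of VLDL assembly and secretion 2 were higher and 3 lower in TH-treated NASH, with a median of 0.01. Tm6sf2, which aids the loading of VLDL with lipid, stood at 28.5 FPKM in TH-treated NASH and 15.8 FPKM in NASH, and Sort1 at 3.75 against 1.27 FPKM. The export proteins of the endoplasmic reticulum Mia2 and Mia3 stood at 4.02 against 20.4 FPKM and 16.5 against 26.4 FPKM, and Cideb, which helps VLDL mature, at 138 against 212 FPKM. Mttp stood at 100.3 FPKM in TH-treated NASH and 76.9 FPKM in NASH, 1.30-fold, while Apob was lower.

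Of 6 genes of Apob mRNA editing 1 was lower: A1cf, the RNA-binding partner of the editing enzyme, stood at 6.49 FPKM in TH-treated NASH and 25.2 FPKM in NASH, 3.89-fold lower. The editing enzyme gene Apobec1 stood at 13.8 FPKM in TH-treated NASH and 12.5 FPKM in NASH. Of 14 receptors and uptake genes 1 was higher, Sdc1, a heparan sulfate proteoglycan that binds remnants, at 90.5 against 55.01 FPKM, and 1 lower, Cd36, at 21.6 against 54.01 FPKM.

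Of 13 lipases and regulators 3 were higher and 4 lower. Angptl8, a regulator of lipoprotein lipase that the table lists as Gm6484, stood at 10.4 FPKM in TH-treated NASH and 42.8 FPKM in NASH, 4.12-fold lower, whereas the lipase inhibitor Angptl4 stood at 82.8 against 49.1 FPKM, 1.69-fold higher. These 2 genes of the lipase list did not stand on the same side. Lpl stood at 13.6 FPKM in TH-treated NASH and 22.6 FPKM in NASH, the endothelial lipase Lipg at 8.18 against 3.904 FPKM and the droplet lipase Pnpla2 at 83.8 against 33.2 FPKM; Cebpa, a liver transcription factor that also stood in this list, was also lower at 161.8 against 251.9 FPKM.

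Of 12 genes of HDL assembly and remodelling 2 were higher, the protease gene Bmp1, which processes pro-apolipoprotein A-I, at 38.3 against 21.1 FPKM, and its enhancer Pcolce2 at 1.98 against 0.633 FPKM, and none was lower. Of 34 transcription factors 4 were higher and 7 lower. Egr1 stood at 26.2 FPKM in TH-treated NASH and 2.45 FPKM in NASH, Cebpb at 272.5 against 145 FPKM, Foxo1 at 13.8 against 7.82 FPKM and Foxa3 at 38.2 against 23.8 FPKM. Among the lower were Pparg at 1.84 against 10.5 FPKM, Srebf1 at 38.4 against 125 FPKM, the fatty acid sensor Ppara at 11.6 against 28.9 FPKM, the clock repressor Nr1d1 at 16.9 against 33.0 FPKM, the thyroid hormone receptor Thra at 4.09 against 7.40 FPKM, and Cebpa. Creb3l3 and Hnf4a lay within 1.5-fold, at 178.6 against 145 FPKM and 114 against 92.6 FPKM.

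TH-treated NASH was also set beside control, a pair that shares a library with each comparison above. Against control, Apoa4, Apoc2, Apom and Apoc3 were higher and Apob was lower, where 15.8% of all genes compared were as far higher and 6.98% as far lower (25.9% and 14.8% among genes of at least 100 FPKM). Apoa4 stood at 1701 FPKM in TH-treated NASH and 154.6 FPKM in control, 11.0-fold higher (10.8 to 11.2), and Apoc2 at 573.6 against 252.6 FPKM, 2.27-fold higher (2.21 to 2.33). Apom, lower in NASH than in control, was higher than control in TH-treated NASH at 379.2 against 199 FPKM, 1.90-fold (1.86 to 1.95). Apoc3 was 1.64-fold higher (1.63 to 1.65) and Apob 1.58-fold lower (1.57 to 1.59). Both calls depended on the setting: Apoc3 passed 1.5-fold in 9 of 12, with its smallest log2 difference at 0.32, and Apob in 10 of 12, with its smallest at −0.27 relative to hepatocyte markers. Apoc3 fell short after median-of-ratios and trimmed-mean scaling and when centred by gene length. Apob fell short relative to hepatocyte markers and in that centring. Some of the 12 settings change only which genes form the background, so they could not move either call. Apoa1 and Apoa5 stood within 1.06-fold of their control levels, and Apoe, Apoc1 and Apoa2 were 1.22-fold, 1.34-fold and 1.27-fold lower; relative to hepatocyte markers Apoe and Apoa2 took the other sign, at log2 differences of 0.09995 and 0.047. The median log2 difference over the 10 genes was 0.03, against 0.12 over all 11474 genes compared and 0.18 over the 800 genes of at least 100 FPKM.

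Over the 3 libraries, 816 other protein-coding genes of at least 100 FPKM in any library were compared with Apoa4 by their centred log2(FPKM + 1) values. The 5 nearest to Apoa4 were Lyz2, Cd5l, C1qa, C1qb and Tmsb4x, at Euclidean distances of 1.65 to 1.87 on that log2 scale. Even the nearest gene thus lay 1.65 away from Apoa4. Gm10680 was outside this search because it is not protein-coding. Lyz2, the macrophage lysozyme, stood at 150.3 FPKM in TH-treated NASH, 167 in NASH and 41.9 in control. The first 4 of them are in the macrophage list, and Lyz2 stood 3.99-fold higher in NASH than in control, where Apoa4 stood 18.9-fold higher.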

How the data were processed

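Libraries were made from polyadenylated liver RNA, per the labels' protocols. The submitters' processing notes name TopHat2 and HTSeq; no source used here gives versions, strand mode or genome build. The authors deposited FPKM for each library together with gene lengths. FPKM times length came in whole multiples of 1 fragment (100% of values above 0 whole within 0.01), from which fragments and counting intervals were recovered (Clopper-Pearson, conditional binomial for folds; PCR copies make them cover counting error only). Log2 differences used a pseudocount of 1 FPKM, which understates the fold of low genes; a fold is a ratio of FPKM. Comparisons across all genes used those reaching 1 FPKM in one of the libraries. With 1 library per group no test was possible. Computing used Python 3.11.15, pandas 2.3.3 and scipy 1.17.1, checked on simulated data.

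The 10 genes and all lists were chosen with earlier results of these data known. The 16 lists hold 265 entries, 261 found by symbol, 3 by synonym and 1 not. Genes were named by rule: all 10, up to 4 per list and comparison with the largest differences among those of at least 5 FPKM, genes within 50 kb, the transcription factor and lipase lists, and the 5 nearest to Apoa4. Others (Sort1, Mttp, Mylip, Abcg1, Pcolce2, Gm10680, and the marker genes at or near 0) were added after their values were seen. Some genes of the lists are not reported here by name. Alternatives were 13 planned settings and 1 added after seeing the data.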

Additional observations from a re-analysis of the deposited data

How the results depend on the processing

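Under the 12 settings that keep the 1.5-fold threshold, Apoa4 and Apoc2 stayed higher and Apom lower in NASH than in control, and Apom stayed higher and Apoa4 and Apoe lower in TH-treated NASH than in NASH. Among the 12, the filters on low values and the restriction to protein-coding genes change only the background. They could not move a call on these genes. The other pseudocounts moved genes this abundant little, so the calls were tried mainly by the scalings and the centring by gene length. No called difference turned its sign under any setting. Genes counted as lower in NASH were 2 after median-of-ratios scaling (Apoa1 joined) and at 1.2-fold, and those higher were 5 relative to hepatocyte markers. For TH-treated NASH against NASH, 3 were higher at 1.2-fold and 0 lower at 2-fold. The lower numbered 3 after median-of-ratios scaling (without Apoc1), 5 after scaling to equal summed FPKM and relative to hepatocyte markers (Apoc2 joined), and 5 when centred by gene length (Apoc2 and Apoa2 joined, Apob left). For TH-treated NASH against control, the lower were 2 after median-of-ratios and after trimmed-mean (TMM) scaling (Apob and Apoc1) and when centred by gene length (Apoa2 and Apoc1, without Apob), 0 relative to hepatocyte markers, 4 at 1.2-fold and 0 at 2-fold, and the higher were 2 at 2-fold. Apoc3 was past 1.5-fold against control in 9 of the 12 settings.

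The median log2 difference of the 10 genes in NASH against control was 0.14 after scaling to equal summed FPKM, −0.10 after median-of-ratios, −0.062 after TMM, 0.093 without the 50 most abundant genes, 0.61 relative to hepatocyte markers and 0.025 centred by length, so its sign rests on the scaling. For TH-treated NASH against NASH it was −0.59, −0.44, −0.49, −0.49, −0.59 and −0.62 in that order, negative throughout. For TH-treated NASH against control it was −0.060, −0.15, −0.16, −0.0032, 0.42 and −0.18. The ratio of summed FPKM for the first 5 of these settings was 1.19, 1.01, 1.04, 1.16 and 1.66 in NASH against control, 0.740, 0.821, 0.791, 0.793 and 0.739 in TH-treated NASH against NASH, and 0.881, 0.830, 0.822, 0.917 and 1.23 in TH-treated NASH against control. The median of all genes in NASH against control was −0.06 after median-of-ratios scaling, −0.03 after TMM and 0.54 relative to hepatocyte markers. The cause of these shifts was not tested. No paired analysis was possible because each group has 1 library. Depth does not limit these genes, which rest on at least 3613 fragments each; the single library per group does.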

Other observations

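Among 17 other apolipoproteins and related lipoprotein proteins, 13 reached 1 FPKM, and most stood close together in all 3 libraries. Apoh, which binds phospholipids, stood at 1370 FPKM in TH-treated NASH, 1278 in NASH and 1463 in control, and Clu, apolipoprotein J, at 942 FPKM, 1028 and 840.4 in that order of libraries. In NASH none was higher than in control and 1 was lower, Saa4, an apolipoprotein of HDL, at 140 against 220 FPKM. In TH-treated NASH Apoc4 was higher than in NASH and Apol7a lower, with Apol7a at 22.3 against 37.1 FPKM. Apof, a lipid transfer inhibitor, stood at 439 FPKM in TH-treated NASH and 292.7 FPKM in NASH, just inside the threshold, and Apon at 274 against 197 FPKM. The median log2 difference of the 13 genes was −0.15 for NASH against control and −0.11 for TH-treated NASH against NASH. Tff3, a secreted trefoil peptide of gut goblet cells, stood at 105.6 FPKM in TH-treated NASH, 5.61 in NASH and 14.0 in control, while the goblet cell mucin Muc2 stayed at or below 0.0188 FPKM in all 3.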
